A study of Homo sapiens with 20 samples.

Results

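The proteasome genes of immortalized human pericytes were described across 20 RNA sequencing libraries of 1 cell line after 4 hours with eNAMPT, PDGF-BB or both. The genes were all rows of the count table named PSM with a class letter from A to G and a number. Of 58676 gene rows, 48 carried such a name, and the 45 with at least 200 counts over the 20 libraries are described here. The other 3 were PSMB10 with 51 counts, and PSMA8 and PSMB11 with 0. The choice used the name and the summed count, so differences between groups played no part in it.

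Each group had 5 libraries of wild-type CL 05008-CLTH cells, a pericyte line from which all 4 groups were taken. Cells received recombinant eNAMPT (500 ng/mL), PDGF-BB (20 ng/mL), both cytokines at those doses, or neither (control). The labels give 4 hours for the treated groups and no time for control. eNAMPT is extracellular nicotinamide phosphoribosyltransferase, an enzyme of NAD synthesis found outside cells, and PDGF-BB is the growth factor bound by the pericyte receptor PDGFRB. The labels call the 5 libraries of a group biological replicates of an immortalized line and do not say how the cultures were separated, so the p-values measure the spread between these libraries. Gene counts ran from 2894878 to 4011066 per library, mitochondrial genes took 8.27% to 9.71% of them, and spike-in transcripts added 1.57% to 2.91%. Of 10 pericyte markers, 9 were abundant enough to be tested, with a summed 321 to 444 counts per 1000000 (CPM), while all 6 fibroblast markers, COL1A1 among them, summed to 3009 to 4257 CPM. Markers of endothelial cells (1 of 6 tested) summed to 1.86 to 8.57 CPM and those of epithelial cells (0 of 6 tested) to 0.306 to 4.93 CPM. Leukocyte markers (2 of 8 tested) summed to 17.7 to 27.6 CPM, most of it CD14 with 33 to 79 counts per library, while LYZ had 0 counts and PTPRC 0 to 2.

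The proteasome is the protease that degrades ubiquitin-tagged proteins. Its 20S core is a barrel of alpha rings outside and beta rings inside, and the beta subunits encoded by PSMB5, PSMB6 and PSMB7 carry the peptide-cutting sites. The 19S cap, with ATPase subunits (PSMC genes) and non-ATPase subunits (most PSMD genes), binds tagged proteins and feeds them in. In cells exposed to interferon, PSMB8, PSMB9 and PSMB10 products take the places of those of PSMB5, PSMB6 and PSMB7, giving the immunoproteasome, which supplies peptides for presentation on MHC class I. PSME1 and PSME2 encode the 11S activator that often accompanies it, and a common set of transcription factors, NRF1 (gene NFE2L1) among them, is known to raise many proteasome genes together when proteasome activity falls.

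PSMB9 and TAP1, a subunit of the transporter that carries proteasome-made peptides into the endoplasmic reticulum, are divergent neighbours on chromosome 6, with the upstream start site of TAP1 488 bases and its downstream one 1431 bases from that of PSMB9, and PSMB8 lies beside them. Their RefSeq promoter windows (GRCh38.p14, 250 bases before to 50 after the start site) are shown with that of PSMB10 because these genes carry the immunoproteasome comparison below. Capitals mark every match, on either strand, to 4 patterns searched: GAAANNGAA (part of the interferon-stimulated element), TTCNNNGAA (the STAT site), TGANNNNGC (the antioxidant element) and CCAAT.
PSMB9, chr6:32853942-32854241, plus strand: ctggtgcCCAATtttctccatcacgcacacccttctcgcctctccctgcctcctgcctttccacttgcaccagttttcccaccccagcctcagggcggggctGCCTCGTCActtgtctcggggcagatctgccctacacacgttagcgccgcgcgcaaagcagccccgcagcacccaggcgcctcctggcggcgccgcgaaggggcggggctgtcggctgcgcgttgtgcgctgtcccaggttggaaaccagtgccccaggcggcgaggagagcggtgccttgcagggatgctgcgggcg
TAP1, chr6:32853655-32853954, minus strand: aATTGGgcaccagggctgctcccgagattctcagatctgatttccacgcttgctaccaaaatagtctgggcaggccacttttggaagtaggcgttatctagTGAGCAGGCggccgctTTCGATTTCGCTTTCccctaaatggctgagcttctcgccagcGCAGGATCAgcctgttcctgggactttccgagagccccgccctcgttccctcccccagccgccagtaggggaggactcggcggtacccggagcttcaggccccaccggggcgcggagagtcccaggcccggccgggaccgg
PSMB8, chr6:32843998-32844297, minus strand: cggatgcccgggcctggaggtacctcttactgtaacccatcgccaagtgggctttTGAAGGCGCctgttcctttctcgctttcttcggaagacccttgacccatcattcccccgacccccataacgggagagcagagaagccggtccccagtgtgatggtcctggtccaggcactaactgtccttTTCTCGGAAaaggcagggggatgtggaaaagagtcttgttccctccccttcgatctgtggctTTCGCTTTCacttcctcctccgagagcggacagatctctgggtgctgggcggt
PSMB10, chr16:67936801-67937100, minus strand: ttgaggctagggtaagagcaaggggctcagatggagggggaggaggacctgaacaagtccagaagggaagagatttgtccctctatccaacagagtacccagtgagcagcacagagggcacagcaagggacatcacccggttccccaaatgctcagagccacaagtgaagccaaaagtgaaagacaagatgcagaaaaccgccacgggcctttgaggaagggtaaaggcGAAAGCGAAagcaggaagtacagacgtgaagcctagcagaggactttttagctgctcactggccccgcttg
TAP1 and PSMB8 have 2 windows each in the table: the one printed holds GAAANNGAA and the one not printed does not. The printed windows of PSMB9 and TAP1 share 13 bases, and overlapping matches in the TAP1 window run together as 1 stretch of capitals.

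GAAANNGAA stood in the printed windows of TAP1, PSMB8 and PSMB10, and was not among the letters of the PSMB9 window. The TAP1 matches begin 133 and 127 bases before its start site, between the start sites of TAP1 and PSMB9. The PSMB9 window ends before reaching them, so its lack of a match holds for that window only. Of the 45 genes, 39 had a window in the table. GAAANNGAA was in a window of 7 of these 39 (17.9%), namely PSMA4, PSMB4, PSMB8, PSMC2, PSME1, PSME2 and PSMG4, against 9.86% of all 27305 genes with windows. The antioxidant pattern TGANNNNGC was in 26 of 39 (66.7%) against 47.1% of all genes, and CCAAT in 19 of 39 (48.7%) against 39.7%. TTCNNNGAA was in 7 of 39 (17.9%) against 9.38%. A match describes letters and shows no binding.

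Proteasome genes were abundant in these cells in every group. Together the 45 genes had 563270 counts and took 0.850% ± 0.0116 of gene counts in cells given eNAMPT, 0.849% ± 0.0140 after PDGF-BB, 0.846% ± 0.0147 after both and 0.850% ± 0.0251 in control (SD, n = 5 libraries each). All 45 passed the filter on low counts, and 43 lay above the median CPM of the 12111 genes tested, with a median percentile of 90.8. Between genes, levels are given as CPM per kb of exon in GENCODE 29, which assumes reads spread over the whole transcript. The labels name only a standard Illumina protocol, and for libraries tagged at the 3' end this order would not hold. The divisor is the exonic length annotated for the gene, which can exceed that of the transcripts present, so the order depends on it. PSMC6 had 105 CPM over 7.482 kb (14.0 per kb), and PSMC2 had 102 CPM over 3.547 kb (28.7 per kb).

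The 20S core held the highest levels and the single lowest one. PSMA7, an alpha subunit on chromosome 20 (62136735 to 62143440, minus strand), had the highest level of all 45 genes, 408 CPM per kb over the 20 libraries. The constitutive beta subunits followed with a median of 137 CPM per kb over 7 genes, from PSMB6 at 208 to PSMB2 at 49.7. The alpha subunits had a median of 37.5 CPM per kb over 7 genes and reached down to PSMA6 at 1.18. PSMA6 had 12 to 44 counts per library. Subunits of the core are needed in equal numbers, and these levels per kb were far from equal. Same-strand genes overlap 24.7% of the exonic length of PSMA1, 14.6% of PSMA2 and 14.1% of PSMA6. How reads shared by 2 genes were counted is not given, and whether this lowered their levels was not tested. PSMA7 at 408 and PSMB2 at 49.7 have no exonic overlap with other genes.

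The 19S cap lay between these. Its 6 ATPase genes had a median of 36.8 CPM per kb, from PSMC4 at 89.7 to PSMC6 at 14.0. Its 11 non-ATPase genes had a median of 52.5, from PSMD2, a scaffold subunit, at 115.7 to PSMD6 at 8.72. The place of the ATPase PSMC1, at 35.1 here, depends on the count table: in the other deposited table, scaled to library totals without TMM, it was the highest ATPase at 86.0 per 1000000 and kb, ahead of PSMC4 at 73.8, and the ATPase median of 47.7 exceeded the non-ATPase one of 43.3. The activator and inhibitor genes ran from PSME1 at 166 CPM per kb to PSME4, the large PA200 activator, at 9.13, around a median of 26.7 over 5 genes. The 7 assembly factors, chaperones that build the particle and leave it, were lowest with a median of 13.5, from PSMG3 at 49.0 to PSMD9 at 2.02. The immunoproteasome genes PSMB8 and PSMB9 stood at 30.3 and 31.6 CPM per kb, below every constitutive beta gene.

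**Figure D1:**
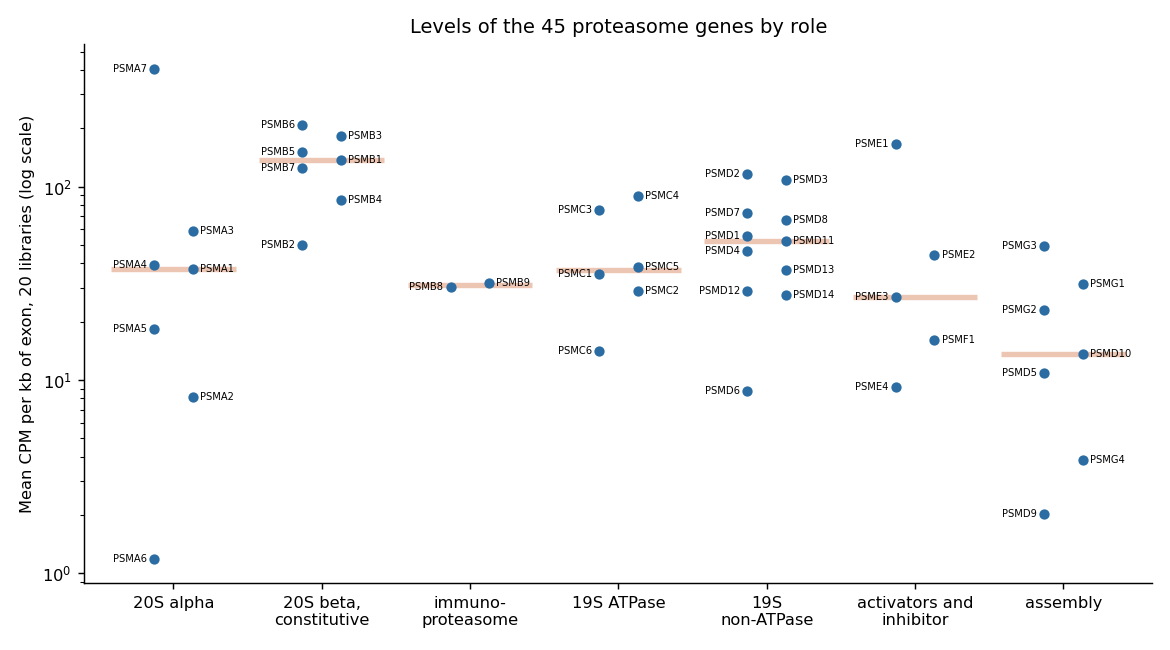
Mean level of each of the 45 proteasome genes over 20 libraries, in CPM per kb of exon on a log axis, grouped by role, with each role's median as a bar. PSMA7 is highest at 408 and PSMA6 lowest at 1.18, and both immunoproteasome genes lie under the constitutive beta genes.

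Replicates of a proteasome gene lay close together. The SD of log2 CPM within groups had a median of 0.136 over the 45 genes, against 0.250 over all genes tested. It was 0.215 over the 9501 genes between the lowest and highest member, 7.68 to 715 CPM. That range holds most genes tested, while the median percentile of members was 90.8, so abundance was not matched. The steadiest was PSMA7 at 0.0624 and the most variable PSMA6 at 0.491. PSMA7 had 677, 678, 722, 714 and 754 CPM with eNAMPT, 701, 695, 723, 690.2 and 767 with PDGF-BB, 719, 722, 745, 710.4 and 754 with both, and 760.3, 674, 719, 664 and 708 in control. The 4 groups of PSMA7 overlapped.

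The main question was whether eNAMPT, PDGF-BB or their combination moved proteasome transcripts within 4 hours, and no proteasome gene passed the test in any comparison. One edgeR quasi-likelihood fit to all 20 libraries gave 8 comparisons, with p-values adjusted by Benjamini-Hochberg over 12111 genes in each and a threshold of 0.05. With eNAMPT against control, 0 of 45 passed, where 0.0743% of all genes passed higher and 0% lower. With PDGF-BB against control, 0 of 45 passed, where 1.05% passed higher and 0.165% lower. With both against control, 0 of 45 passed, where 1.63% passed higher and 0.347% lower. These 3 comparisons share the control libraries.

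Comparisons with a treated group on both sides gave the same count. With both against PDGF-BB alone, 0 of 45 passed, where 0.0578% of all genes passed higher and 0% lower, and with both against eNAMPT alone, 0 of 45 passed, where 1.18% passed higher and 0.347% lower. For the interaction (the log2 effect of eNAMPT in the presence of PDGF-BB minus that in its absence), 0 of 45 passed, where 0% of all genes passed in either direction. Averaged over the design, 10 libraries with eNAMPT against 10 without gave 0 of 45, where 0.157% passed higher and 0% lower. The 10 libraries with PDGF-BB against 10 without gave 0 of 45, where 2.96% passed higher and 1.01% lower. At shares of this size in all genes, few or none of 45 genes would pass if they did as all genes did, and a p that misses the threshold does not show equal levels.

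Unadjusted p-values under 0.05 were few as well. Among 360 tests (45 genes in 8 comparisons) edgeR gave 6, DESeq2 8 and limma-voom 7, and neither DESeq2 nor limma-voom passed any gene after adjustment. Against control, 0 of 45 genes reached an unadjusted p under 0.05 with eNAMPT, PDGF-BB or both, against 3.61%, 9.64% and 10.9% of all genes. With PDGF-BB averaged, 0 of 45 did, against 15.1% of all genes. The 6 of edgeR lay elsewhere. With both against eNAMPT 2 of 45 did, against 10.9% of all genes, and for the interaction 2 of 45 (4.44%), against 3.35%. With eNAMPT averaged 1 of 45 did, against 3.63%, and with both against PDGF-BB 1 of 45, against 412 of 12111 genes. Counts of 0 depended in part on the model. With the replicate number as a term in edgeR, 2 of 45 each did with eNAMPT or PDGF-BB against control and with PDGF-BB averaged. With both against control 0 did.

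The fold changes themselves were small and their intervals narrow. The median log2 fold change of the 45 genes against control was 0.0030 for eNAMPT, 0.020 for PDGF-BB and 0.032 for both, and the medians of all genes lay within 0.0051 of 0 in these 3 comparisons. With both against control the middle 50% of proteasome genes lay between -0.034 and 0.080, and that of all genes between -0.14 and 0.12. Scaled to the ERCC spike-ins, the medians in that comparison were -0.11 for the 45 genes and -0.15 for all genes. The outermost fold changes in it after TMM were PSMD9 at -0.23 and PSMB8 at 0.15. With PDGF-BB averaged they were PSMC4 at -0.085 and PSMA6 at 0.14, and with eNAMPT averaged PSMD9 at -0.18 and PSMC5 at 0.079.

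The 95% intervals, from the fit without the replicate number as a term, limit how large an undetected change could be. For both against control, 43 of 45 intervals lay within 0.5 on the log2 scale, a 1.41-fold change in either direction, and all 45 lay within 1. For eNAMPT averaged all 45 lay within 0.5, and for PDGF-BB averaged 44 did. PSMA6 had the widest interval in all 8 comparisons, reaching 1.08 on the log2 scale for the interaction. In bulk RNA, fewer cells of a type and less RNA per cell cannot be told apart, and a change in all transcripts at once is removed by the scaling.

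**Figure D2:**
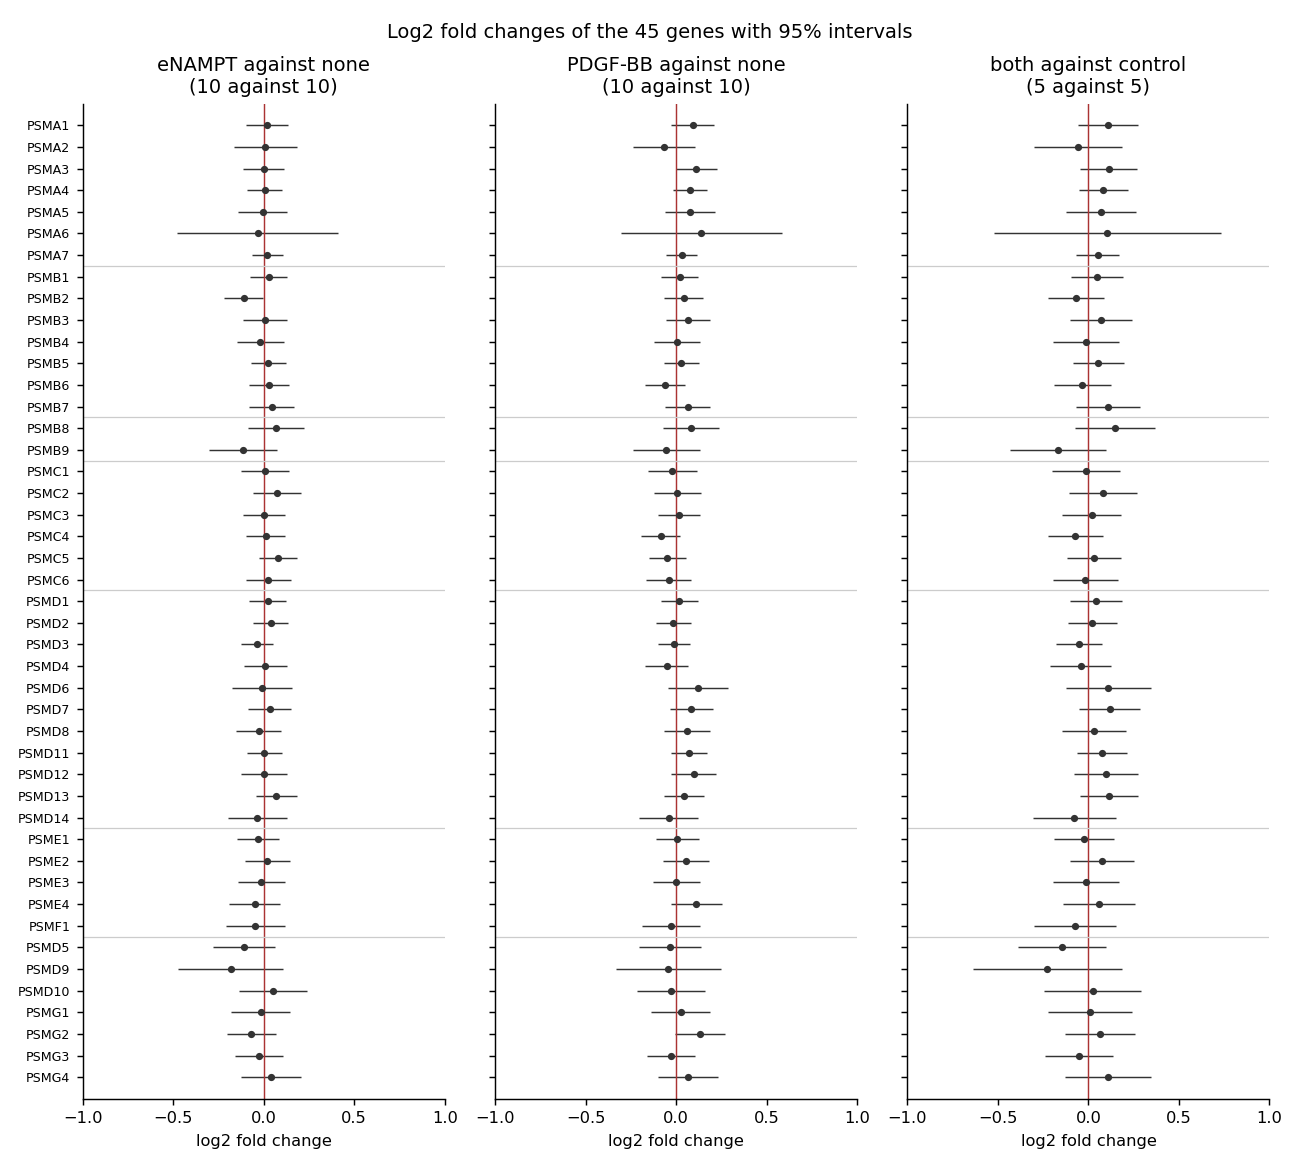
Log2 fold change (x axis) of each of the 45 genes with its 95% interval, for eNAMPT averaged, PDGF-BB averaged and both against control, with horizontal lines between roles. The interval of PSMB2 with eNAMPT averaged ends just below 0, the others shown include 0, and PSMA6 and PSMD9 have the widest ones.

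**Figure D3:**
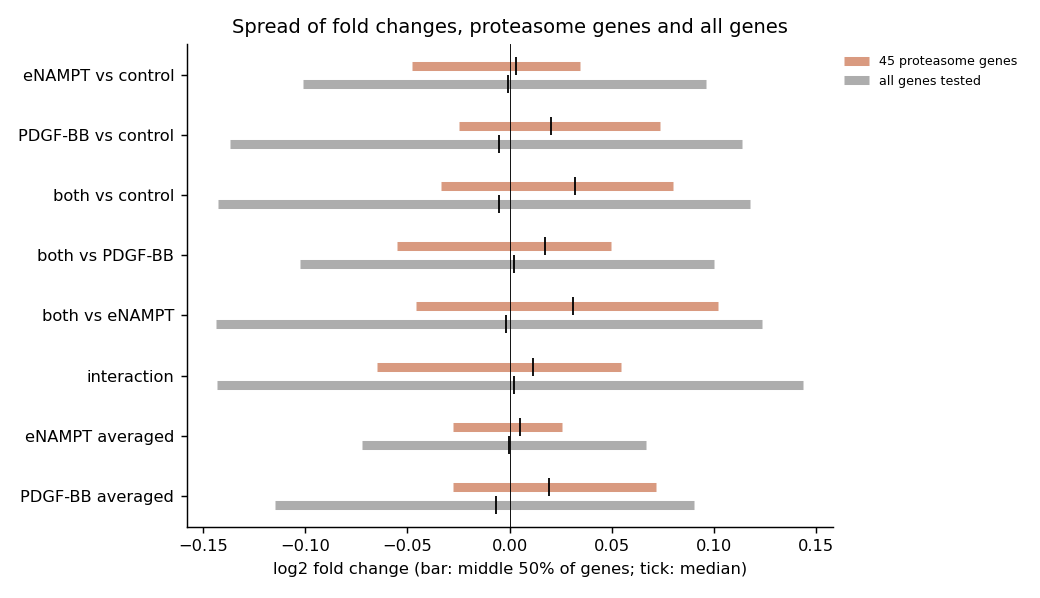
Median (tick) and middle 50% (bar) of log2 fold changes for the 45 proteasome genes above and all 12111 tested genes below, in each of 8 comparisons. The bar of the proteasome genes is the shorter one in every comparison.

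Immunoproteasome genes did not pass in any comparison either. PSMB8, whose product replaces that of PSMB5, had 106, 97.3, 93.8, 99.5 and 65.0 CPM with eNAMPT, 87.7, 95.1, 86.4, 101 and 97.1 with PDGF-BB, 83.8, 90.7, 97.9, 105 and 88.4 with both, and 98.2, 97.2, 81.4, 78.3 and 66.5 in control. One library each of eNAMPT and control was lower than the rest, and all groups overlapped. The log2 fold change of PSMB8 was 0.15 with both against control (95% interval -0.074 to 0.37, adjusted p = 0.709), 0.13 with eNAMPT and 0.15 with PDGF-BB. These were the highest fold changes among the 45 genes in all 3 comparisons with control.

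PSMB9, the counterpart of PSMB6, varied more between libraries. It had 124, 113, 84.2, 85.7 and 74.1 CPM with eNAMPT, 109.8, 117, 95.6, 89.7 and 88.4 with PDGF-BB, 109, 95.6, 87.1, 86.7 and 74.9 with both, and 136, 119, 96.5, 80.4 and 77.4 in control. The library numbered 5 was the lowest in each of the 4 groups, and those numbered 1 and 2 were the highest pair in each. Group means were 96.1 ± 21.0 CPM with eNAMPT, 100.1 ± 12.8 with PDGF-BB, 90.7 ± 12.7 with both and 101.9 ± 25.3 in control (SD, n = 5). The log2 fold change was -0.17 with both against control (95% interval -0.43 to 0.097, adjusted p = 0.718), -0.085 with eNAMPT and -0.025 with PDGF-BB. The sign of these last values was not stable: without library 1 of control they were 0.043 with eNAMPT and 0.10 with PDGF-BB, and the PDGF-BB value was 0.020 with ERCC scaling and 0.0036 with limma-voom.

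PSMB10, the counterpart of PSMB7, was barely detected. Its 51 counts were 0, 2, 1, 1 and 1 with eNAMPT, 6, 8, 2, 0 and 14 with PDGF-BB, 0, 0, 0, 1 and 3 with both, and 4, 1, 0, 4 and 3 in control. Summed over a group this was 0.306 per 1000000 gene counts with eNAMPT (exact Poisson 95% interval 0.0993 to 0.714), 1.74 with PDGF-BB (1.18 to 2.49), 0.238 with both (0.0648 to 0.609) and 0.749 in control (0.387 to 1.31). The intervals cover counting error only, and 1 library held 14 of the 30 counts with PDGF-BB. The gene AC040162.1 on the same strand, with 3 counts, overlaps 34.8% of the exonic length of PSMB10. How reads shared by 2 genes were counted is not given, and whether this lowered the PSMB10 count was not tested. PSMA8, the testis alpha subunit, and PSMB11, the thymus beta subunit, had 0 counts of 66386104, which allows up to 0.0452 per 1000000.

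The constitutive counterparts were higher, and neither PSMB5 nor PSMB7 passed in any comparison. PSMB5 averaged 264 ± 10.4 CPM with eNAMPT, 265 ± 16.2 with PDGF-BB, 272 ± 22.4 with both and 262 ± 7.08 in control (SD, n = 5). PSMB7 averaged 216 ± 18.4 CPM with eNAMPT, 219 ± 24.2 with PDGF-BB, 239 ± 27.3 with both and 222 ± 27.1 in control. Their largest log2 fold changes against control were 0.055 and 0.11, both with the combination. The size of a ratio per kb depends on the annotated exonic lengths. These were 2.997 kb for PSMB8 and 3.072 for PSMB9, against 1.765 for PSMB5 and 1.448 for PSMB6. Per kb, PSMB8 stood at 0.206 ± 0.0386 of PSMB5 with eNAMPT, 0.209 ± 0.0255 with PDGF-BB, 0.204 ± 0.0350 with both and 0.190 ± 0.0276 in control. PSMB9 stood at 0.140 ± 0.0228 of PSMB6 with eNAMPT, 0.156 ± 0.0070 with PDGF-BB, 0.149 ± 0.0224 with both and 0.162 ± 0.0261 in control. PSMB8, PSMB9 and PSMB10 summed to 0.126 ± 0.0199 of PSMB5, PSMB6 and PSMB7 with eNAMPT, 0.135 ± 0.0092 with PDGF-BB, 0.125 ± 0.0059 with both and 0.129 ± 0.0220 in control. Each difference of these ratios from control was smaller than the SD within the control group. That SD includes spread that went with library number, which took 89.2% of the within-group spread of PSMB9 and 82.4% of that of PSMB6. From number 1 to 5, PSMB9 over PSMB6 was 0.173, 0.154, 0.122, 0.130 and 0.121 with eNAMPT. In control it was 0.193, 0.184, 0.158, 0.131 and 0.144, higher at each number. These ratios were not tested.

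**Figure D4:**
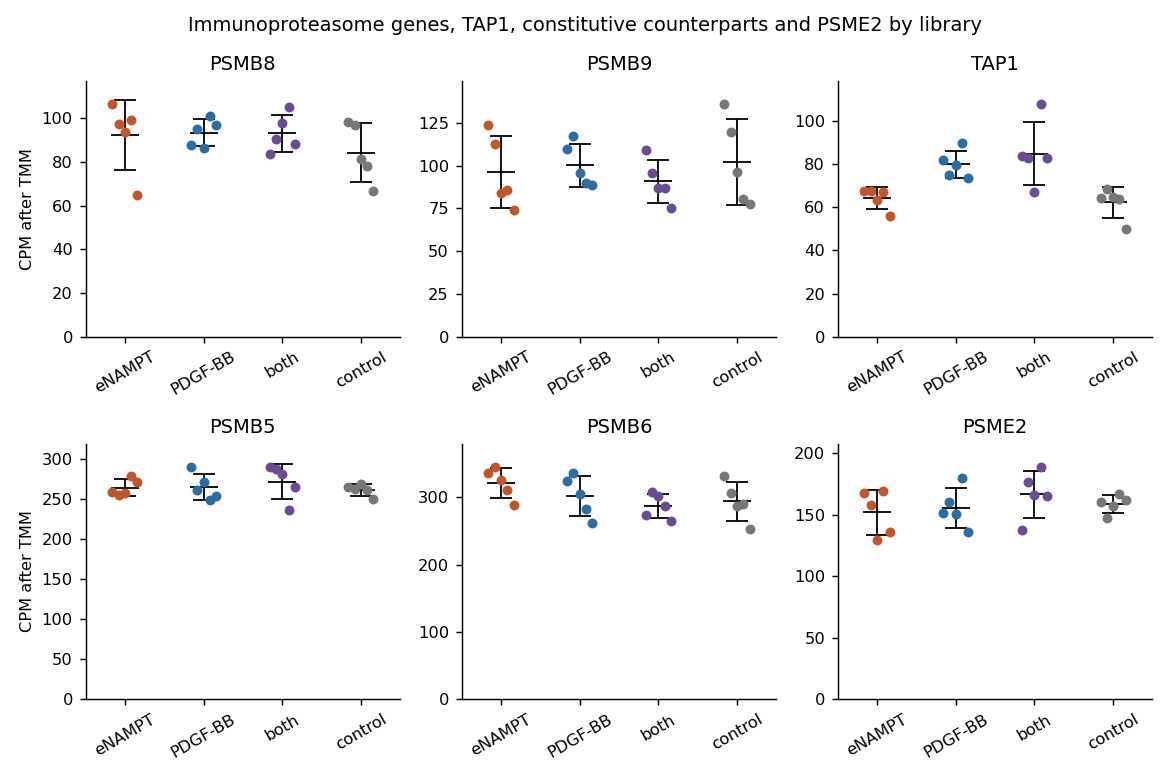
CPM of PSMB8, PSMB9, TAP1, PSMB5, PSMB6 and PSME2 in each of 20 libraries (points) with mean and SD (bars) for eNAMPT, PDGF-BB, both and control. TAP1 lies higher in the groups with PDGF-BB, and the proteasome genes overlap between all groups.

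Among partners of the immunoproteasome in peptide presentation, TAP1 passed. Of 12 such genes reported here, IRF1, NLRC5, TAP2, TAPBP, ERAP1 and B2M among them, all were tested, and 1 rose and 0 fell with PDGF-BB averaged, where 2.96% of all genes passed higher and 1.01% lower. TAP1 had 67.4, 67.9, 63.5, 67.3 and 56.1 CPM with eNAMPT, 82.1, 75.2, 79.6, 89.7 and 73.5 with PDGF-BB, 83.8, 82.9, 67.3, 108 and 83.1 with both, and 64.6, 68.8, 64.7, 64.1 and 50.2 in control. All libraries with PDGF-BB alone lay above all control libraries, and 4 of 5 with both did. The log2 fold change of TAP1 was 0.38 with PDGF-BB averaged (SE 0.076, adjusted p = 8.00e-04) and 0.45 with both against control (SE 0.11, adjusted p = 0.0122). Scaled to the ERCC spike-ins these were 0.33 each and neither passed (adjusted p = 0.481 and 0.844). Without library 4 of both or library 5 of control the call with both was lost (adjusted p = 0.114 and 0.0574). It was 0.40 with both against eNAMPT (adjusted p = 0.0364), a call lost when any 1 of libraries 1 to 5 of eNAMPT or 1, 4 and 5 of both was left out (adjusted p 0.0512 to 0.236), and 0.36 with PDGF-BB alone (adjusted p = 0.107).

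IRF1, a direct activator of immunoproteasome genes, had a log2 fold change of 0.48 with eNAMPT against control but did not pass (adjusted p = 0.173). The median log2 fold change of the 12 genes was 0.10 with PDGF-BB averaged, against -0.0065 over all genes.

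Whether TAP1 differed from its divergent neighbour PSMB9 was tested within libraries, a comparison chosen after the values were seen. The log2 ratio of TAP1 to PSMB9 was -0.099 ± 0.32 with both and -0.68 ± 0.28 in control, a difference of 0.58 (exact permutation test, two-sided, p = 0.0238, adjusted over 3 comparisons 0.0714). It was -0.32 ± 0.23 with PDGF-BB, a difference from control of 0.36 (exact permutation p = 0.0635, adjusted 0.0952), and -0.55 ± 0.23 with eNAMPT, a difference of 0.13 (exact permutation p = 0.460). With 5 libraries on each side the smallest p possible is 0.0079. None of the 3 differences passed after adjustment over 3. That with both did without library 4 of control (0.67, exact permutation, adjusted p = 0.0476), and that with PDGF-BB did without library 2 of PDGF-BB (0.44, exact permutation, adjusted p = 0.0476). Each of these was 1 of 11 alternatives, and the other 10 did not pass. Their adjusted p (exact permutation) reached 0.143 with both and 0.190 with PDGF-BB.

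The members with the smallest p-values lay both inside and outside the core. PSMA1, an alpha subunit, had 117, 132, 145, 136 and 139 CPM with both, 114, 108, 115, 135 and 105 with eNAMPT, 115, 132, 119, 123 and 118 with PDGF-BB and 126, 130.5, 125, 115 and 124 in control. Libraries with both lay higher than 4 of 5 with eNAMPT, and the groups overlapped. Its log2 fold change with both against eNAMPT was 0.21 (SE 0.082, adjusted p = 0.263), the smallest adjusted p of the 360 edgeR tests without the replicate number as a term. Its interaction was 0.24 (SE 0.12, adjusted p = 0.999), with a fold change of -0.11 for eNAMPT alone against control and 0.14 for both against PDGF-BB.

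Some members changed places between groups without passing. PSMB6, the core subunit with the caspase-like site, had 274, 307, 302, 288 and 265 CPM with both, 336, 345, 325, 312 and 288 with eNAMPT, 325, 336, 305, 283 and 263 with PDGF-BB and 332, 307, 287, 290.1 and 253 in control. It was highest with eNAMPT, and its log2 fold change with both against eNAMPT was -0.16 (SE 0.077, adjusted p = 0.433). With the replicate number as a term in edgeR it was -0.16 (SE 0.055, adjusted p = 0.0866). PSMB2, another constitutive beta subunit, had 217, 225, 253, 228 and 209 CPM with eNAMPT, 254, 260.2, 277, 233 and 237 with PDGF-BB, 253, 219.9, 232, 244 and 233 with both and 257, 266, 257, 253 and 206 in control. Its log2 fold change with eNAMPT averaged was -0.11 (SE 0.054, adjusted p = 1.00).

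PSMD3, a non-ATPase subunit of the cap, had 523, 516, 501, 492 and 524 CPM with both, 535, 587, 561, 516 and 548 with eNAMPT, 589, 577, 561, 527 and 545 with PDGF-BB and 561, 505, 545, 487 and 553 in control. All 5 libraries with both lay below all 5 with PDGF-BB, the only proteasome gene without overlap in that comparison, where 0.264% of all genes lay wholly lower and 0.322% wholly higher. Its log2 fold change there was -0.13 (SE 0.062, adjusted p = 1.00), and its interaction was -0.18 (adjusted p = 0.999). With both against eNAMPT, the alpha genes PSMA3 and PSMA4 were the genes without overlap, 2 of 45 higher and 0 lower, where 1.75% of all genes lay wholly higher and 0.925% wholly lower.

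PSMA3 had 205, 192, 185, 182 and 191 CPM with both, 177, 179, 168, 176 and 175 with eNAMPT, 177, 206, 176, 201 and 185 with PDGF-BB and 196, 187, 183, 178 and 141 in control. It came nearest to the threshold with PDGF-BB averaged, at a log2 fold change of 0.11 (95% interval -0.00076 to 0.22, adjusted p = 0.335). PSMA4 had 287, 271, 271, 295 and 299 CPM with both and 266, 269, 257, 267 and 268 with eNAMPT, and a log2 fold change of 0.077 with PDGF-BB averaged (adjusted p = 0.472). With both against eNAMPT all 7 alpha genes had a fold change above 0, with a median of 0.10, against 28 of the 45 and 49.6% of all genes tested. With scaling to the ERCC spike-ins 2 of the 7 and 3 of the 45 did, and the median of all genes there was -0.15. With eNAMPT against control 1 of the 7 alpha genes lay above 0. Other roles were as one-sided: 7 of 7 assembly genes lay above 0 with PDGF-BB against control and 0 of 7 for the interaction. Against control no gene was without overlap: 0 of 45 with eNAMPT, where 0.396% of all genes lay wholly higher and 0.256% wholly lower, 0 of 45 with PDGF-BB (1.52% and 0.768%) and 0 of 45 with both (1.75% and 1.18%).

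**Figure D5:**
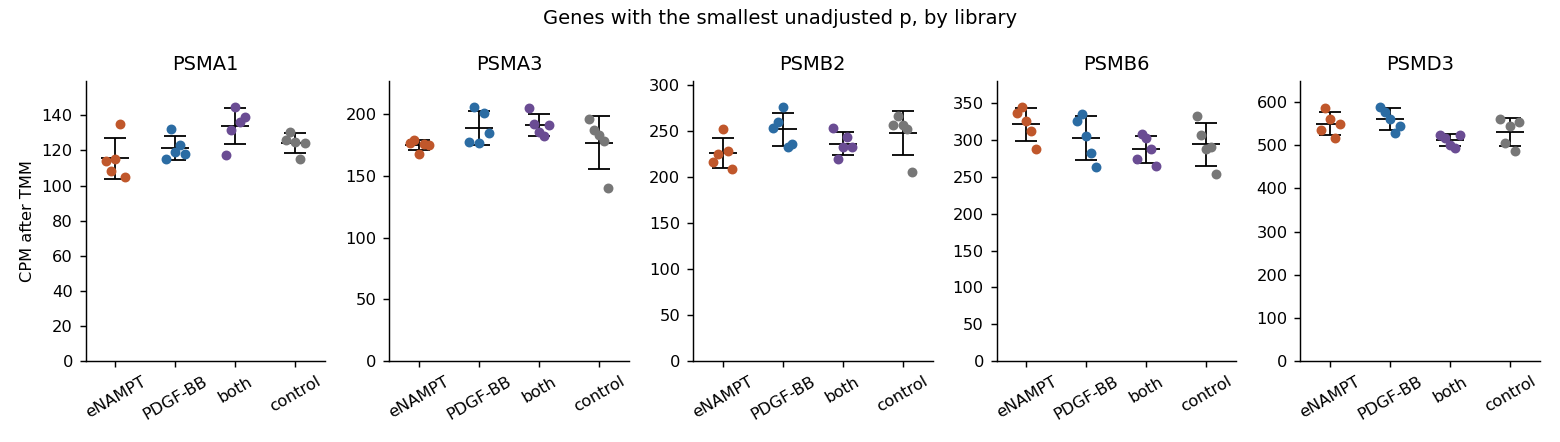
CPM of PSMA1, PSMA3, PSMB2, PSMB6 and PSMD3 in each library (points) with mean and SD (bars) for eNAMPT, PDGF-BB, both and control. PSMD3 with both lies below PSMD3 with PDGF-BB in every library, and PSMA3 with both lies above PSMA3 with eNAMPT.

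Cap, activator and assembly genes did not pass either. Among the ATPases, PSMC4 had the smallest p with PDGF-BB against control, at 204 ± 12.5 CPM with PDGF-BB and 222 ± 18.7 in control (log2 fold change -0.12, adjusted p = 0.654). PSMC5 had 180 ± 3.8 CPM with eNAMPT and 172 ± 7.0 in control, with a log2 fold change of 0.079 with eNAMPT averaged. Of the lid genes of the cap, PSMD12 averaged 161 ± 13.1 CPM with PDGF-BB and 146 ± 18.0 in control (log2 fold change 0.14, adjusted p = 0.644), and PSMD7 and PSMD13 had fold changes of 0.12 and 0.11 with both against control (adjusted p = 0.690 and 0.661).

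PSME1 averaged 299 ± 34.2 CPM with eNAMPT, 307 ± 13.7 with PDGF-BB, 288 ± 27.0 with both and 293 ± 32.3 in control (SD, n = 5), and PSME2 averaged 152 ± 18.2 CPM with eNAMPT, 156 ± 16.2 with PDGF-BB, 167 ± 19.0 with both and 159 ± 7.29 in control. Neither gene of the 11S activator passed in any comparison. With PDGF-BB averaged their log2 fold changes were 0.0075 (95% interval -0.11 to 0.12) and 0.054 (-0.073 to 0.18). PSME3, the nuclear activator, averaged 132 ± 18.5 CPM with eNAMPT and 143 ± 9.24 in control (log2 fold change -0.12, adjusted p = 1.00). Among assembly factors, PSMG2 averaged 82.9 ± 6.75 CPM with PDGF-BB and 75.3 ± 7.29 in control (0.14, adjusted p = 0.713), and PSMD5 43.7 ± 3.10 CPM with both and 51.0 ± 8.70 with PDGF-BB (-0.22, adjusted p = 1.00).

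Genes around the proteasome were listed from textbook roles. Of 16 associated genes (POMP, ADRM1, SEM1, USP14, UCHL5 and shuttle factors among them), 1 rose and 0 fell with PDGF-BB averaged, and 0 passed in the other 7 comparisons. With PDGF-BB averaged 2.96% of all genes passed higher and 1.01% lower. The gene that rose was ADRM1, a ubiquitin receptor of the cap that lacks a PSM name. ADRM1 had 164, 168, 173, 189 and 152 CPM with PDGF-BB, 156, 161, 209, 194 and 179 with both, 154, 132, 147, 155 and 150.5 with eNAMPT and 139.5, 138, 156, 174 and 146 in control, so the groups overlapped except for both against eNAMPT. Its log2 fold change was 0.22 with PDGF-BB averaged (SE 0.061, adjusted p = 0.0221). The call was lost without library 2 of control, library 2 of eNAMPT, library 3 of both or library 4 of PDGF-BB (adjusted p 0.0504 to 0.0676). The median log2 fold change of the 16 was 0.013 with PDGF-BB averaged, against 0.019 over the 45.

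Of 9 genes that regulate proteasome transcription, MAFF rose and the others did not pass. In the comparisons where MAFF passed, 1.05% to 2.96% of all genes passed higher and 0.165% to 1.01% lower. NFE2L2 had the smallest p of the 9 with eNAMPT averaged, at a log2 fold change of 0.22 (edgeR, adjusted p = 0.445). It also did with both against PDGF-BB, at 0.27, and did not pass there either. MAFF, a small Maf protein that pairs with NRF factors, had 102, 76.7, 90.4, 91.6 and 82.2 CPM with PDGF-BB, 103, 67.7, 97.5, 104 and 101 with both, 56.8, 56.8, 54.2, 50.4 and 40.2 with eNAMPT and 54.8, 49.4, 72.6, 43.3 and 45.03 in control. All libraries with PDGF-BB alone lay above all control libraries. The log2 fold change was 0.74 with PDGF-BB (SE 0.13, adjusted p = 1.64e-04), 0.83 with both against control (adjusted p = 1.26e-05), 0.87 with both against eNAMPT (adjusted p = 8.05e-06) and 0.80 with PDGF-BB averaged (adjusted p = 7.18e-09). NFE2L1, which encodes NRF1, averaged 79.1 ± 10.1 CPM with PDGF-BB, 90.0 ± 10.6 with both, 83.0 ± 6.58 with eNAMPT and 80.9 ± 3.42 in control, and did not pass. Scaling to the ERCC spike-ins ended the calls of TAP1 and ADRM1 and those of MAFF with both, while MAFF still passed with PDGF-BB against control and averaged.

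Of 12 ubiquitin, E1 and VCP genes, 0 passed in any of the 8 comparisons with edgeR, where between 0% and 2.96% of all genes passed higher and between 0% and 1.01% lower, so few or none of 12 would pass at that rate. The smallest p belonged to UBA6, an activating enzyme for ubiquitin, with a log2 fold change of 0.22 with both against control (adjusted p = 0.0911) and CPM of 251 ± 12.3 with both and 216 ± 9.36 in control. UBB, a polyubiquitin gene, averaged 778 ± 21.97 CPM with eNAMPT, 762 ± 27.3 with PDGF-BB, 791 ± 36.4 with both and 787 ± 27.2 in control.

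Read assignment limited a few members. The deposited tables hold a second set of counts that is never lower, and the table used held 95% or more of them for 43 of the 45 genes. PSMC1, an ATPase subunit, had 14348 counts of 42610 (33.7%), and PSMC6 6930 of 8948 (77.4%). PSMC1 has 13 pseudogenes, which held 552 counts in the table used and 24071 in the other, and 75.8% of its exonic length overlaps NRDE2 on the opposite strand. PSMC1 did not pass in either table, and its log2 fold change with the combination against control was -0.013 from each. PSMC6 did not pass in either table, but its sign turned in places: its log2 fold change was 0.022 and, in the other table, -0.025 with eNAMPT against control, and -0.038 and 0.023 with both against eNAMPT. The interaction of PSMC6 was 0.0062 and, in the other table, 0.11. Same-strand genes overlap exons of PSMA1, PSMA2, PSMA6 and PSMB10 as given above, and AC069503.2 overlaps 14.9% of PSMD9 exonic length. Strand use in counting is not given in the sources used here, so reads of PSMB8, PSMB9 and PSMB8-AS1, whose exons overlap in part, cannot be told apart where they do: 20.6% of PSMB8 exonic length overlaps other genes and 5.66% of PSMB9.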

How the data were processed

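RNA was sequenced from 20 libraries in 4 groups of 5. Per the submitters' processing notes, the tools were STAR 2.6.1a, featureCounts 1.6.4, DESeq2 1.18.1 and FastQC 0.11.7 and the build was GRCh38, with no role or order given. The authors deposited raw counts per gene, with no normalization, and those were used. A further deposited count table, whose difference from the first is not stated, served as an alternative. Member genes, gene lists, tests and the rule for genes named individually were chosen with earlier results of these data known. Some genes of the list of immunoproteasome partners are not reported here, and the list's counts and median leave them out.

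filterByExpr and TMM of edgeR 4.0.16 (R 4.3.3) kept 12111 genes and scaled libraries. Rows of 92 ERCC and 7 SIRV spike-ins stayed out. One quasi-likelihood model (glmQLFit, glmQLFTest, two-sided) with a mean per group gave 8 comparisons. P-values were adjusted by Benjamini-Hochberg over all genes within each comparison, and the standard error is the size of the log2 fold change divided by the square root of F. CPM is counts per 1000000 after TMM. A 95% interval uses the model's t distribution. The step was tested on simulated data. Named were PSMB8, PSMB9, PSMB10, PSMB5, PSMB6, PSMB7, PSME1 and PSME2, the 3 members with the smallest p in each comparison, the highest and lowest of each role, and list genes that passed or had the smallest p; others were named after their values were seen.

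Alternatives were DESeq2 1.42.0, limma-voom 3.58.1, RLE size factors, ERCC scaling, no filter, at least 10 counts in every library, the replicate number as a term, only the groups compared, the other table, a threshold of 0.01 and leaving out each library. Added after seeing the data were levels per kb from the other table and same-numbered pairs for the TAP1 to PSMB9 ratio. Depth was 2894878 to 4011066 gene counts per library. All 48 gene positions matched GENCODE 29. Of the planned ratios, PSMB10 over PSMB7 was not formed because PSMB10 had 0 counts in several libraries, and ratios are given per kb, which shifts their log2 by a constant.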

Additional observations from a re-analysis of the deposited data

Results flagged for a closer look

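Within groups of 5 libraries, 9 of 108 sets examined had 1 library far from the other 4, with a gap above 0.71 of the range, and chance gives about 1 in 20. MAFF with both had a lowest library of 67.7 CPM (next 97.5). PSMA4 with eNAMPT had a lowest library of 257 CPM (next 266), in a range that ended at 269. PSMD13 with PDGF-BB had a lowest library of 160.2 CPM (next 176). In control, the lowest library of PSMB2 had 206 CPM (next 253) and that of TAP1 50.2 CPM (next 64.1), and the highest of PSMB7 had 269.5 CPM (next 219) and that of PSMC5 184 CPM (next 169). The log2 ratio of PSMB8 to PSMB5 per kb had a lowest library of -2.82 with eNAMPT (next -2.25), which is the library with 65.0 CPM of PSMB8. The log2 ratio of PSMB9 to PSMB6 had a highest library of -2.41 with both (next -2.77).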

How the results depend on the processing

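No member passed in any comparison under 30 other settings. Among them is a threshold of 0.01 on the main fit, which could pass no member because none passed at 0.05. The lowest adjusted p was 0.0866, for PSMB6 with both against eNAMPT with the replicate number as a block. Replicate numbers did not meet the criterion for pairing, an r over 0.1 in all same-numbered pairs, but they went with part of the spread. The p-values and intervals of the main fit leave them out. Same-numbered libraries correlated over 9643 genes at r of 0.0143 to 0.252 (median 0.153), over 0.1 in 23 of 30 pairs. Differently numbered libraries had r of -0.173 to 0.160. The block gave 17 of 360 unadjusted p under 0.05 against 6 without it. Over all genes it raised the calls with both against control from 198 higher and 42 lower to 385 and 125. With PDGF-BB averaged, the calls over all genes rose from 358 and 122 to 633 and 325. Replicate number went with 89.2% of the within-group spread of PSMB9, with a median of 45.3% over the 45 genes and 32.9% over all genes, and 0.743% of genes reached the share of PSMB9; the cause was not tested. With the block, PSMB9 with both against control was -0.15 (SE 0.084, adjusted p = 0.405). In an alternative chosen after seeing the data, the log2 ratio of TAP1 to PSMB9 was compared between same-numbered libraries. It was above control in 5 of 5 numbers with both and with PDGF-BB (exact sign-flip permutation p = 0.0625 each, the smallest 5 pairs can give) and in 4 of 5 with eNAMPT (exact permutation p = 0.125).

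ERCC scaling moved the median of all genes to -0.15 for both against control, -0.16 against PDGF-BB and -0.15 against eNAMPT. Under it signs changed for PSMA1 with both against PDGF-BB (-0.032), PSMA3 (-0.044), PSMD13 (-0.034) and PSMD7 (-0.031) with both against control, PSMB8 with eNAMPT averaged (-0.0077) and PSMB9 with PDGF-BB against control (0.020), which limma-voom gave as 0.0036. Leaving out 1 library each, PSMB9 ranged from -0.11 to 0.10 with PDGF-BB against control, -0.19 to 0.043 with eNAMPT against control and -0.095 to 0.0080 with PDGF-BB averaged. ERCC scaling ended the calls of ADRM1 (0.16, adjusted p = 0.963), TAP1 in its 3 comparisons (0.33, 0.33 and 0.29, adjusted p 0.481 to 0.853) and MAFF with both (0.72 and 0.73, adjusted p = 0.0811 and 0.0930). TAP1 with both against eNAMPT was also lost with only those groups fitted (adjusted p = 0.0527) and in the other table (0.0642). PSMA6, with 12 to 44 counts per library, had the widest interval in all 8 comparisons, and PSMB10 had too few counts to be tested.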
